A study of Mus musculus with 4 samples.

Results

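DN3 thymocytes lacking Scd1 were compared with DN3 thymocytes of littermate controls by ATAC-seq, in which the Tn5 transposase cuts and tags open chromatin. The members were the regions that the authors' DN3 peak lists had in common, matched wherever a control and a Scd1-deficient region on chromosomes 1 to 19 or X overlapped by at least 1 bp and each was the other's longest overlap. Of 76814 control and 76437 Scd1-deficient regions, 68372 pairs matched, and 44076 pairs were at least 500 bp wide in both lists. Those 44076 were the regions compared by height, out of 251124 regions in the 4 lists of the series.

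The DN3 cells were untreated thymus cells, depleted of lineage-positive and CD4-positive cells on magnetic beads and then flow sorted as lineage-negative, CD4- and CD8-negative, CD44-negative and CD25-positive. One genotype was labelled SCD1 deficient. The other was labelled littermate control, and its sample titles carry the letters HZ, which the labels do not explain. Naive CD4 T cells from the spleen of both genotypes were profiled too, and served here as a second readout. Each of the 4 groups had 1 library. The labels do not give the number, age or sex of the mice behind a library, nor which part of Scd1 was deleted. With 1 library a side no test was possible, and every difference given here is between libraries.

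Scd1 encodes stearoyl-CoA desaturase, an enzyme of the endoplasmic reticulum that puts the first double bond into saturated fatty acids. Its products go into membrane lipids, triglycerides and cholesterol esters, and monounsaturated fatty acid is also attached to Wnt proteins by the acyltransferase Porcn. DN3 is the stage of thymocyte development at which the T cell receptor beta chain is rearranged and tested as part of the pre-TCR, under strong Notch signalling.

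Sequence could be set beside the data where both summits of a matched region lay in the promoter window of a gene. The windows shown were chosen because they held the 2 lowest and the 2 highest ratios of Scd1-deficient to control among the protein-coding genes considered, and, for DN3 biology, the lowest and the highest ratio among the DN3 marker and Notch genes, which were Rag2 and Rag1. Each is the 250 bases before the RefSeq start (GRCm38.p6, the assembly of mm10), 5′ to 3′ on the strand of the gene. Capitals mark matches, on either strand, to GGAAG (the core of ETS family sites), TGTGGT (the core of RUNX sites), GGGCGG (the GC box) and CCAAT (the NFY site). No match overlapped a match to another of these motifs.
Ifitm1: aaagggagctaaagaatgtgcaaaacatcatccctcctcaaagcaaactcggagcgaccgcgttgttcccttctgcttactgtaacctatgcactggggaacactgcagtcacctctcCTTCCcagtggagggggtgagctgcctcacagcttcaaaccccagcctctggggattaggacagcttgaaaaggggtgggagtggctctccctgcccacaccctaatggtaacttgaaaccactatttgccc
Galnt16: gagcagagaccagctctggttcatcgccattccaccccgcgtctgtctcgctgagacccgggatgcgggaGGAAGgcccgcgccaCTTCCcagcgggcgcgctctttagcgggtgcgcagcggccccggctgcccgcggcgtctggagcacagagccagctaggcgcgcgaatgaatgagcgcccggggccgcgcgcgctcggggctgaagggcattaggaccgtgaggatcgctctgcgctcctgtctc
Myl9: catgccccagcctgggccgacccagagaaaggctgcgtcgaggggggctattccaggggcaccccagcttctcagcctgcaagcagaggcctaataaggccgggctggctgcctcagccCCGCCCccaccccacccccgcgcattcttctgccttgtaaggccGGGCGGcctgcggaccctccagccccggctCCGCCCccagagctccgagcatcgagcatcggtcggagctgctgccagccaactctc
Snx7: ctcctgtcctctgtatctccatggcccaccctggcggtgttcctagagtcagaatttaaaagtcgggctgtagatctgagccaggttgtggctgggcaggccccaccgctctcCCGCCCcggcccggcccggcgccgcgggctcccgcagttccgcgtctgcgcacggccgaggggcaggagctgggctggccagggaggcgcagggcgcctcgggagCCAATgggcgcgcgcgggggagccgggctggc
Rag2: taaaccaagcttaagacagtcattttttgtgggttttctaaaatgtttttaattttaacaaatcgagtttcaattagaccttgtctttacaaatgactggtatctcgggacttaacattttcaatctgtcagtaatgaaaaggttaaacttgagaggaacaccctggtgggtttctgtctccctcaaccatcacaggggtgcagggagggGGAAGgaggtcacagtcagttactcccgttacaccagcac
Rag1: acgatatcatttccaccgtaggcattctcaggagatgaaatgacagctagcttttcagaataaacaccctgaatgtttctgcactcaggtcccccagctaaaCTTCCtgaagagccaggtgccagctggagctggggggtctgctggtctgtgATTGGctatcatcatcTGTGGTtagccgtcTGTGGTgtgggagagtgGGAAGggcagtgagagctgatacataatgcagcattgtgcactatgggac

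The Ifitm1 window lies at chr7:140967826-140968075 on the plus strand, that of Galnt16 at chr12:80518740-80518989 (plus), Myl9 at chr2:156775214-156775463 (plus) and Snx7 at chr3:117868937-117869186 (minus). The Rag2 window is chr2:101624462-101624711 (plus) and the Rag1 window chr2:101649533-101649782 (minus). Rag1 held 2 RUNX cores. Windows with any match to that motif were 13.9% of 32619 such windows of the RefSeq table. Among the 7584 windows that held both summits of a matched region they were 10.8%. All shares given here are of windows with any match, however many. GC boxes were found in 33.0% of all windows and in 66.1% of the 7584, and the Myl9 window held 3. ETS cores were found in 64.0% and 70.5%, and NFY sites in 34.0% and 39.5%. A match is a description of the letters and not a binding site.

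Most matched wide regions of DN3 cells had a similar relative height in the Scd1-deficient and the control library. Height was the authors' fold of a peak, the fragment pileup at its summit over the local background, divided by the median fold of its list (6.82 in the control and 6.63 in the Scd1-deficient list). That division removes any change shared by all regions of a library. Over the 44076 matched wide regions the median log2 ratio of Scd1-deficient to control was 0.042, with quartiles of -0.068 and 0.14, and 98.9% of regions lay within 1.5-fold. Past 1.5-fold, the size used here to call a region, 190 regions were higher in the Scd1-deficient library (0.431% of those compared) and 307 in the control (0.697%). Past 2-fold there were 10 and 24. The values nearest the 1.5-fold line were log2 0.587 inside and 0.583 outside for regions higher in Scd1-deficient cells, and 0.585 on both sides for regions higher in the control. Width and depth moved these counts. They were 445 and 652 with regions down to 300 bp, 47 and 84 from 800 bp, and 101 and 146 where the −log10 q was at least 10 in both lists.

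**Figure D1:**
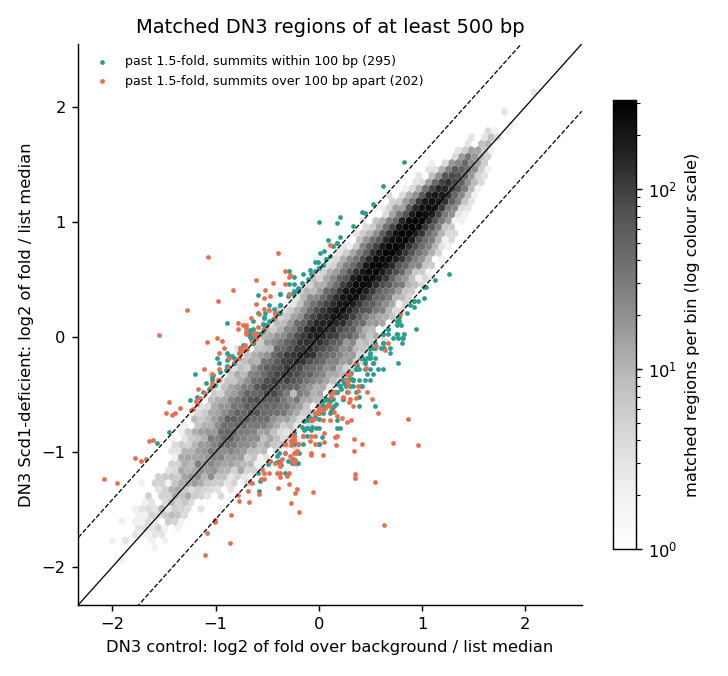
Height of the 44076 matched wide DN3 regions in the control (x) and the Scd1-deficient library (y), as log2 of fold over local background divided by the list median; grey bins show the number of regions on a log colour scale, the solid line is equality and the dashed lines are 1.5-fold. The 497 regions past 1.5-fold are coloured by whether the summits of the pair lay within 100 bp (295) or further apart (202), and the points farthest from the line are mostly of the second kind.

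The largest ratios came from places that were 1 region in one list and several in the other. Of the 34 pairs past 2-fold, 31 had summits more than 100 bp apart, against 12.7% of all matched wide pairs. In 27 of these 31, another region of the other list overlapped the same region with its summit within 100 bp, and measured against that region none of the 27 was past 1.5-fold. For all calls past 1.5-fold, 202 of 497 had summits apart, 79 had such another region, and none of the 79 remained past 1.5-fold, their median absolute log2 ratio going from 0.884 to 0.12. This comparison with the nearest summit was chosen after the data were seen.

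Il2ra, which encodes CD25, the surface marker used to sort these cells, gave the highest ratio. A region inside the gene, at chr2:11672951-11673685 in the control, had a fold of 3.24 on 20 summit fragments, and the overlapping Scd1-deficient region, chr2:11672123-11673612, had 10.7 on 71 fragments, a log2 ratio of 1.76. The control list had a second region under the same Scd1-deficient region, at chr2:11672182-11672406, with a fold of 11 on 71 fragments and the identical summit. At that summit the control library was as high as the Scd1-deficient library, in a region narrower than 500 bp. The other 6 matched wide regions of Il2ra had log2 ratios of fold between -0.068 and 0.11. By summit fragments, each over the median of its list and without the local background, the same 6 were all higher in the Scd1-deficient library, with log2 ratios between 0.17 and 0.81, and 2 of them were past 1.5-fold. The deepest of the 6 had 325 and 350 fragments (0.24 on that scale) and the shallowest 22 and 32 (0.67). The scales differ by the local background, and which of them reflects the chromatin was not tested.

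The lowest ratio lay 144 kb from Serp2, its nearest gene, which encodes a protein associated with the translocon of the endoplasmic reticulum. The control region, chr14:76700665-76702397, had a fold of 10.6 on 201 fragments and its longest Scd1-deficient overlap 2.13 on 31, a log2 ratio of -2.27. Another Scd1-deficient region, chr14:76700739-76701423, had a fold of 10.7 on 170 fragments with its summit 16 bp away, a log2 ratio of 0.056. The same held for each of the 12 regions lowest in Scd1-deficient cells, with log2 ratios of -1.23 to -2.27 by longest overlap and -0.29 to 0.29 at the same summit. They lay in or nearest to Serp2, Plpp7, Itgb2 (the beta-2 integrin chain of leukocytes), Map4k3, Swap70, Itpr1 (an IP3 receptor that releases calcium), Etv2, Rgs21, Tcte2, Phf12, Cdk19 (a kinase of the Mediator complex) and Sde2. Of the 12 highest, 9 had summits apart, and 7 of these 9 had such another region, at -0.091 to 0.31. Those 7 lay in or nearest to Il2ra, Bcor (a BCL6 corepressor), Haus1, Prss40, Ifnb1 (interferon beta), Bank1 and Zfp608. The regions of Onecut1 (log2 1.57) and Mau2 (1.04) had no region at the same summit, though in Onecut1 a control region of the same height (fold 6.83 against 6.70) had its summit 178 bp away.

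**Figure D2:**
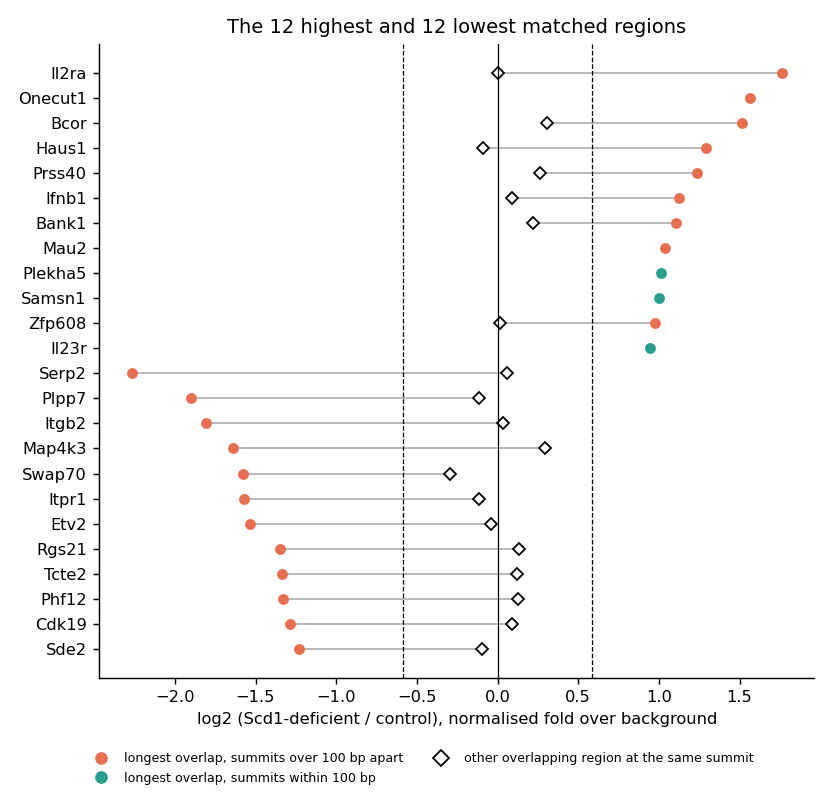
Log2 ratio of Scd1-deficient to control for the 12 highest and the 12 lowest matched wide regions, named by their nearest gene; filled points use the longest overlap (orange where summits lie over 100 bp apart, green within 100 bp), open diamonds the overlapping region of the other list with the same summit, and dashed lines mark 1.5-fold. The diamonds of 19 regions lie between -0.29 and 0.31.

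Where the summits of a pair lay within 100 bp, in 38485 pairs, 110 regions (0.286%) were higher in Scd1-deficient cells past 1.5-fold and 185 (0.481%) in the control. The largest ratios were smaller there, from -1.14 to 1.01, and rested on few fragments. The genes of these extremes were chosen after their values were seen. Plekha5 held the highest, inside the gene at chr6:140508366-140509021, with folds of 3.67 in the control and 7.20 in the Scd1-deficient library on 20 and 39 summit fragments (log2 1.01, 95% interval 0.20 to 1.87). These intervals are exact binomial (Clopper-Pearson) intervals of the summit fragments put on the scale of the ratio, and cover the counting error of those fragments only. The local background was taken as exact, so a difference in it shifts the whole interval. A region 35.3 kb from Samsn1, an adaptor that restrains lymphocyte activation, had folds of 6.82 and 13.3 on 38 and 75 fragments (log2 1.0, interval 0.42 to 1.60). One 7.47 kb from Il23r, the interleukin 23 receptor gene, had 4.54 and 8.52 on 25 and 47 fragments (log2 0.95, interval 0.22 to 1.71). In naive CD4 cells the last 2 had log2 ratios of 0.062 and -0.062.

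On the control side the lowest was at an end of Gm5294 (chr5:138820706-138821542), with folds of 9.96 and 4.38 on 56 and 23 fragments (log2 -1.14, interval -1.91 to -0.42). A region at an end of Rgs6, a regulator of G protein signalling, had 7.87 and 3.84 on 44 and 20 fragments (log2 -1.0, interval -1.84 to -0.20). Hrh1, the histamine H1 receptor gene, held a region with 11.6 and 5.66 on 81 and 30 fragments (log2 -0.99, interval -1.65 to -0.37). Cers2, a ceramide synthase gene and thus a gene of lipid metabolism, had a region at an end with 6.95 and 3.64 on 52 and 25 fragments (log2 -0.89, interval -1.64 to -0.18). None of these 4 places was called in either naive list. All of these were picked as extremes, so an interval off 0 at one of them is no support. Over all same-summit regions the interval lay off 0 in 2.79%.

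Depth separated the called regions from the rest. In the regions with the same summit, split into 10 equal classes by summit fragments, 287 of the 295 calls (97.3%) were in the 3 shallowest classes and none of the 295 in the 5 deepest. The spread of the log2 fragment ratio, taken from the quartiles, was 0.311 in the shallowest class (median 35.5 fragments) and 0.0908 in the deepest (475 fragments). The spread that counting of fragments alone gives was 0.355 and 0.0930 there. Over the 10 classes the observed spread of fragments was 0.876 to 1.01 times the counting spread. The log2 ratio of fold, on which the calls were made, had a narrower spread, 0.284 in the shallowest class and 0.0752 in the deepest. Both values are below the counting spread, and the cause was not tested. The regions matched are those called in both lists, so a place below the calling threshold in one library is not among them.

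**Figure D3:**
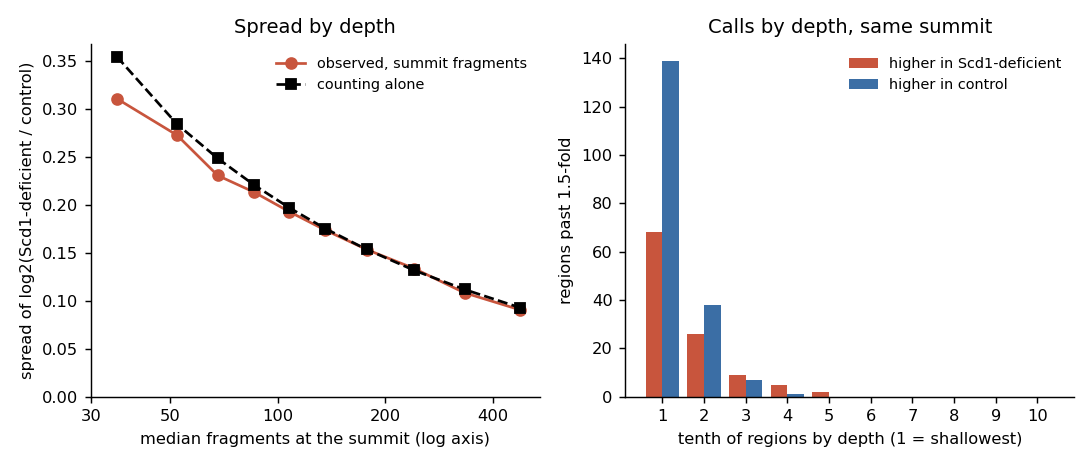
Left, spread of the log2 ratio of summit fragments (red) and the spread from counting alone (black) in 10 equal depth classes of the regions with summits within 100 bp, against median fragments on a log axis; right, number of regions past 1.5-fold per class. The 2 curves run together, and the 5 deepest classes hold no call.

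In the deep regions, where a given ratio is measured with less error, the libraries differed little. Of 15791 regions with the same summit and at least 150 fragments (the geometric mean of the 2 libraries, a limit chosen after the data were seen), none was past 1.5-fold, and the ratios ran from 0.72-fold to 1.38-fold. The lowest lay inside Atg16l2, a relative of an autophagy gene, with folds of 6.39 and 4.47 on 218 and 128 fragments (log2 -0.47, interval -0.80 to -0.15). Next came a region at an end of Notch3, a Notch receptor of DN3 cells, with folds of 2.75 and 1.93 on 224 and 149 fragments (log2 -0.47, interval -0.78 to -0.17). In naive cells the Notch3 region had a log2 ratio of 0.11. The highest lay inside Smad4, which carries TGF-beta signals, with folds of 5.86 and 7.87 on 154 and 193 fragments (log2 0.47, interval 0.15 to 0.78). Cux1, a homeobox gene, held the next, with 2.09 and 2.77 on 143 and 168 fragments (log2 0.45, interval 0.12 to 0.78). The median of these deep regions was 0.067, and the interval lay above 0 in 722 and below 0 in 32, against 1033 and 283 of all 44076 matched wide regions. Over all of the latter it lay off 0 in 2.99%. The list medians set where 0 lies, so these counts depend on that scaling.

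Gene ends, within 1 kb of either annotated end of a protein-coding gene, were slightly higher in the Scd1-deficient library than other places. Their median log2 ratio was 0.063 over 11881 regions, against 0.032 over 18450 regions inside genes and 0.030 over 13745 outside genes. With the same-summit pairs alone the medians were 0.066, 0.033 and 0.031. Depth moved with this, since the median of the same-summit regions went from -0.028 in the shallowest class to 0.089 in the deepest, and its part in the difference was not tested. Gene ends also held fewer calls, 23 (0.194%) higher in Scd1-deficient cells and 42 (0.354%) in the control, against 0.56% and 0.939% outside genes. Chromosome medians ran from 0.036 on chromosome 1 to 0.048 on X. Within 5 Mb of Scd1 on chromosome 19, 367 regions had a median of 0.032 with 2 calls higher in Scd1-deficient cells and 1 in the control.

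Regions open in DN3 cells and not called in either naive list had a median of 0.015 (11192 regions), and those called in both naive lists 0.050 (30471 regions). Away from gene ends the medians were closer, 0.016 (9967 regions) and 0.036 (20174 regions). The part of depth in this difference was not tested. The regions called in DN3 cells were set beside the same places in naive cells. Of the 190 regions higher in Scd1-deficient DN3 cells, 61 had a matched wide naive pair, of which 2 were higher and 1 lower in Scd1-deficient naive cells past 1.5-fold. Of the 307 higher in the DN3 control, 77 had a naive pair, of which 2 were higher in Scd1-deficient naive cells and 0 in the naive control. Over all 26818 regions with such a pair the naive shares were 1.69% higher in Scd1-deficient cells and 0.373% in the control. Across these regions the DN3 and naive log2 ratios had a Pearson r of -0.017, a description over regions of the same 4 libraries. Of the 3 same-summit extremes with a naive pair, the region inside Umad1 was past 1.5-fold in the same direction there, with DN3 folds of 5.59 and 9.86 (log2 0.86) and a naive log2 ratio of 0.85.

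Some regions had no counterpart at all. These were 7975 control regions (10.4% of its list) and 7250 Scd1-deficient regions (9.48%), and they were shallow, with medians of 25 and 22 summit fragments against 78 and 71 for regions with a counterpart. At gene ends 3.06% of control and 2.84% of Scd1-deficient regions had none, inside genes 12% and 10.9%, and outside genes 12% and 11%. Naive cells shared few of them: 14.8% of the control regions without a counterpart were called in the naive control, and 18.9% of the Scd1-deficient ones in the Scd1-deficient naive library, against 57.2% and 60.6% of regions with a counterpart. Those at least 500 bp wide numbered 813 in the control and 602 in the Scd1-deficient list, or 1.62% and 1.24%.

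Of these wide regions, the strongest in the control lay inside Zfp516 (fold 11.2 on 74 fragments) and Nudt9, an ADP-ribose pyrophosphatase gene (12.1 on 68). Others lay inside Nfatc3, an NFAT factor of T cells (9.39 on 73), Numa1, a spindle protein gene (6.79 on 87), Cfap61, Stk31, 4921504E06Rik and Prelid2, 13.2 kb from Gabrr1 and 160 kb from Ctnnb1. In the Scd1-deficient list the strongest lay inside Apbb1ip (14.1 on 76), Ppp1r13b (11.7 on 86) and Rngtt, the mRNA capping enzyme gene (13.0 on 70). Filip1, Echdc1, Radil, Dnm3 and Nars held further ones, and the last 2 lay 82.6 kb from Ugp2 and 14.8 kb from Krr1. Some had a close neighbour in the other list. The Ppp1r13b region lay 61 bp from a control region, and those of Nfatc3 and Cfap61 865 and 798 bp from Scd1-deficient regions. At Nudt9, Zfp516, Stk31, Numa1, Gabrr1 and Cfap61 the Scd1-deficient naive library had a region at the place that its DN3 library lacked. In the other direction the naive control had a region at 8 of the 10 places, those of Apbb1ip, Ppp1r13b, Rngtt, Echdc1, Dnm3, Nars, Ugp2 and Krr1. Absence from a list means below the authors' calling threshold and not closed chromatin.

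Of the targeted gene and its family, Scd1 and Scd2 had a region at a gene end in both libraries, and Scd3 and Scd4 in neither. Scd1 (chr19:44394450-44407709) had a matched region over its end, chr19:44407152-44408706, with folds of 9.41 in the control and 8.86 in the Scd1-deficient library on 124 and 85 fragments (log2 -0.047, interval -0.46 to 0.36). By fragments over the list median that region was at -0.41, and the local background was lower with it. A second, at chr19:44388153-44389371 beside the gene, had 12.2 and 12 on 320 and 293 fragments (log2 0.0071). In naive cells the 2 had log2 ratios of -0.12 and 0.11. The deleted part of Scd1 is not known, so these values neither check nor go against the genotype label. Scd2, the desaturase of many tissues outside the liver, had 4 regions between -0.016 and 0.11. Scd3 had 2, both beside the gene body and not in it, at -0.19 and 0.12. Scd4 had no matched wide region. None of the 8 regions of the family was past 1.5-fold. Of all matched wide regions 0.431% and 0.697% were, so a count of 0 among 8 says little.

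Gene ends were read as a check of the DN3 label. All 15 DN3 markers, among them Il2ra, Ptcra, Rag1, Rag2, Notch1, Dtx1, Bcl11b and Tcf7, had a region at an annotated end in both libraries, with median folds of 4.16 in the control and 3.85 in the Scd1-deficient list, the lowest of the 25 lists. Of 14 B cell markers 7 in the control and 6 in the Scd1-deficient list did, with median folds of 5.16 and 5.84, and Ms4a1 and Cd22 had none in either. Of 20 myeloid and dendritic markers 8 and 9 did (median fold 7.32 and 8.07), with none at Csf1r, Itgam, Mpo and S100a8. Of 11 erythroid markers 5 did in both (6.79 and 6.99), with none at Gata1 and Alas2. Of 13 markers of thymic epithelium and stroma 9 in the control and 8 in the Scd1-deficient list did (5.40 and 5.89), so most of these were open too. All 10 markers of double-positive and CD8 cells, 13 of 14 early progenitor markers and 11 and 10 of 15 markers of gamma-delta and innate-like T cells had one, so these neighbours in development cannot be told apart from DN3 cells by open gene ends. The part of other cells in any difference was not tested.

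Rag1 and Rag2, which cut the receptor genes, stand side by side. The regions at their ends went both ways. The region over the printed Rag1 window, chr2:101648238-101649838, had folds of 6.79 and 8.39 on 114 and 139 fragments (log2 0.35, interval -0.022 to 0.72). That over the printed Rag2 window, chr2:101624043-101625300, had 6.47 and 6.05 on 133 and 115 fragments (log2 -0.057, interval -0.43 to 0.31). Both genes also share 2 regions, one with 4.45 and 3.95 on 69 and 55 fragments (log2 -0.13) and one with 18.2 and 15.04 on 125 and 86 (log2 -0.23), so that the median of Rag1, -0.13, has the opposite sign to the region over its window. None of these 4 was past 1.5-fold, and each interval held 0. Of the other printed windows, the Ifitm1 region had 6.47 and 3.79 on 45 and 22 fragments (log2 -0.73, interval -1.54 to 0.036) and the Galnt16 region 6.84 and 4.05 on 60 and 30 (log2 -0.72, interval -1.40 to -0.060). Ifitm1 encodes an interferon-induced membrane protein and Galnt16 an enzyme that starts O-linked sugar chains. The Myl9 region, at a myosin light chain gene, had 3.45 and 5.83 on 21 and 38 fragments (log2 0.80, interval -0.0090 to 1.64), and the Snx7 region, at a sorting nexin gene, 4.54 and 7.67 on 25 and 41 (log2 0.80, interval 0.043 to 1.57). Of the 6382 regions over promoter windows, 4 were higher in Scd1-deficient cells and 6 in the control past 1.5-fold, and their median was 0.074.

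Notch signalling in DN3 cells runs from the receptors Notch1 and Notch3, cut by presenilin proteases, to the DNA-binding partner Rbpj and the Maml coactivators, and on to targets such as Hes1, Dtx1, Nrarp, Ptcra and Il2ra. The 29 genes of the Notch and pre-TCR list had 155 matched wide regions, with a median log2 ratio of 0.024. Past 1.5-fold, 2 of them were higher in Scd1-deficient cells and 1 in the control. Over all matched wide regions the shares were 0.431% and 0.697%, so counts this small say little. Notch1 had 6 regions between -0.14 and 0.066. By fragments over the list median they ran from -0.19 to 0.61, the highest with 88 and 123 fragments. Ptcra, the pre-TCR alpha chain gene, had 3, between 0.039 and 0.15, and Dtx1, Hes1 and Nrarp had no call. Rbpj was the lowest of the list, with a median of -0.35 over 5 regions. Its folds were 7.64 and 5.84, 10.5 and 6.76, 5.93 and 6.0, 13.6 and 13.3, and 14.3 and 10.1 in the control and the Scd1-deficient library. The second of these, inside the gene at chr5:53566227-53567360, was the call, with 59 and 36 fragments (log2 -0.59, interval -1.23 to 0.028). Of the 5, 3 were lower in the Scd1-deficient library and the other 2 close to equal, the deepest of them (509 and 478 fragments) at 0.055. The calls on the other side were the Il2ra region described above and one inside Maml3 (chr3:51750950-51751457), with folds of 3.70 and 5.54 on 30 and 37 fragments (log2 0.62, interval -0.11 to 1.37).

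Tcf7, which encodes TCF1, a factor of T lineage commitment and a partner of beta-catenin, had the lowest median of fold among the DN3 markers. Its 7 regions had a median of -0.13 and ran from -0.55 to 0.055, but by fragments over the list median the sign turned, to 0.043. On that scale the medians of Rag1 (-0.20) and Rag2 (-0.14) were lower. The lowest, inside the gene at chr11:52253609-52254442, had folds of 5.28 and 3.51 on 85 and 68 fragments (interval -1.03 to -0.069). Its fragments alone, each over the median of its list, gave -0.19, and the rest of the ratio was in the local background. Bcl11b, the factor that closes off other fates, had 9 regions between -0.46 and 0.29 and no call. Over the 29 T lineage factors and their 209 regions the median was 0.042, the same as over all regions. Beside 0.431% and 0.697% called over all matched wide regions, the list held 2 calls higher in Scd1-deficient cells and 1 in the control. These were a region 2.88 kb from Lef1 (folds 2.23 and 3.56, log2 0.71), whose fragments were 121 and 119 with summits 1234 bp apart, one inside Runx2 (4.72 and 6.94 on 26 and 37 fragments, log2 0.60) and one inside Runx1 (4.27 and 2.46, log2 -0.76), with 29 and 25 fragments and summits 614 bp apart.

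The Wnt list runs from Porcn and Wls, which acylate and carry Wnt proteins, to the destruction complex and the TCF factors. Its 34 genes had 151 regions with a median of 0.026 and 1 call, the Lef1 region. Over all matched wide regions 0.431% were called as higher in Scd1-deficient cells and 0.697% as higher in the control. Porcn had 2 regions, at 0.016 and -0.042. Wls had 3, between 0.18 and 0.20, the highest member median of the list. Ctnnb1, which encodes beta-catenin, had 0.11 at its gene end and -0.19 beside the gene. Among members with at least 2 regions Tle4, a corepressor, had the lowest median, -0.17 over 4. Fzd6, a Wnt receptor gene with 1 region, was at -0.25.

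Lipid genes, the genes nearest to the enzyme that was removed, held few calls. Over all matched wide regions 0.431% and 0.697% were called, so a count of 0 in lists of this size says little. The 28 genes of fatty acid synthesis and elongation had 89 regions, a median of 0.041 and 0 calls past 1.5-fold in either direction. Fasn, the fatty acid synthase gene, had 3 regions between -0.0068 and 0.15, and Acaca, the acetyl-CoA carboxylase gene, 5 between -0.23 and 0.24. Among members with at least 2 regions, the limit for ranking members of every list, the lowest was Acsl1, an acyl-CoA synthetase (median -0.13 over 4 regions), and the highest Hacd3 (0.22 over 2). The 23 genes of cholesterol synthesis and uptake had 56 regions with a median of 0.062 and 0 calls, from Soat1, which makes cholesterol esters (-0.094 over 6), to Fdps (0.20 over 2). The 23 genes of fatty acid oxidation and lipid storage had 68 regions with the highest median of the 25 lists, 0.070, and 0 calls. Slc25a20 was lowest there (-0.089 over 3) and Acadl highest (0.22 over 3). Over all matched wide regions the median was 0.042, and the quartiles of these regions held the medians of all 25 lists. Those quartiles are the spread of single regions, and the list medians were taken over 8 to 209 regions, so this says little about the lists.

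The lipid regulators had 78 regions around 16 genes, with a median of 0.070 and 1 call, higher in the control. Srebf1, the master factor of fatty acid synthesis, had 5 regions between -0.15 and 0.090, and Srebf2, its counterpart for cholesterol, 6 between -0.22 and 0.18. Ppara, a receptor that senses fatty acids, was the highest member, with 7.90 and 8.84 at one end of the gene and 10.7 and 12.5 at the other, the latter on 453 and 489 fragments (log2 0.26, interval 0.077 to 0.45). The call was a region inside Rxra, the common partner of such receptors, with folds of 3.99 and 2.46 on 29 and 21 fragments (log2 -0.66, interval -1.54 to 0.20), one of its 12 regions. At an end of Nr1h2, which encodes the oxysterol receptor LXR beta, a region had folds of 7.07 and 9.73 (log2 0.50) on nearly equal fragments, 434 and 419, with summits 320 bp apart.

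Over all 25 lists, 1868 regions held 9 calls higher in Scd1-deficient cells (0.482%) and 4 in the control (0.214%), beside 0.431% and 0.697% of all matched wide regions. List medians ran from 0.0095 for the BCL2 family to 0.070, and 15 lists had no call. Of the 13 calls, 4 had summits within 100 bp, those inside Maml3, Runx2 and Rbpj and one at an end of Marveld3, which lies by Phlpp2, a phosphatase that turns off AKT (5.94 and 8.88 on 33 and 48 fragments, log2 0.62). The calls with summits apart that have not been named yet lay in or near Fos (log2 0.84), Stat2 (0.80), Ebf1 (0.67), Irf2 (0.67) and Lat (-1.13), the adaptor of T cell receptor signalling. For Lat another Scd1-deficient region at the same summit gave -0.19. The interferon response list had a median of 0.022 with the Stat2 and Irf2 calls, and the lists of TCR signalling (171 regions, 0.023) and PI3K pathway genes (117 regions, 0.068) had 1 call each. Cell cycle, glycolysis, BCL2 family and stress genes had 0 calls.

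**Figure D4:**
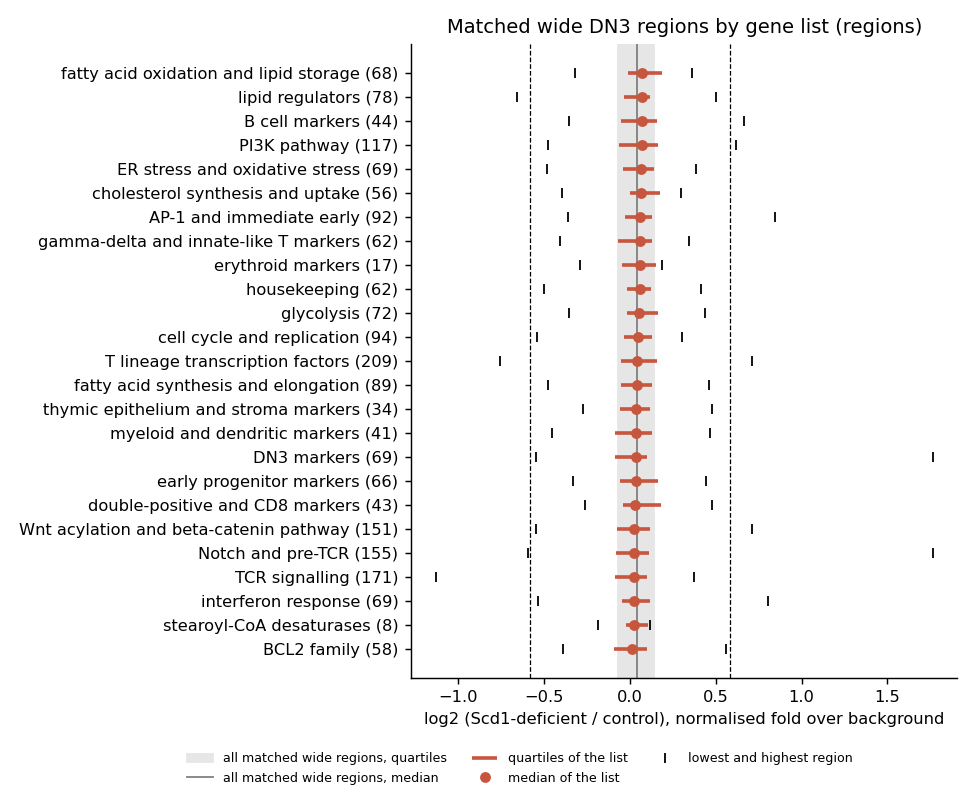
Log2 ratio of Scd1-deficient to control for the matched wide regions of each gene list (number of regions in brackets): points are medians, red bars quartiles, black ticks the lowest and highest region, the grey band and line the quartiles and median of all 44076 regions, dashed lines 1.5-fold. The list medians lie between 0.0095 and 0.070, inside the grey band, which is the spread of single regions and not of list medians.

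Read gene by gene, no median was past 1.5-fold. Of 2438 genes with at least 5 matched wide regions in the body or 10 kb on either side, medians ran from -0.35 (Rbpj) to 0.36 (Tasp1), with a median of 0.041. The lowest after Rbpj were Marchf6, a ubiquitin ligase gene of the endoplasmic reticulum that degrades enzymes of sterol synthesis (-0.34), Pax6 (-0.33), Lrp8, a lipoprotein receptor gene (-0.28), Cdc42bpb (-0.25), Sobp (-0.25), Col13a1 (-0.24), Atp2b2 (-0.23), Abcc4 (-0.22) and Vps8 (-0.22). Marchf6 had folds of 15.7 and 12.1, and of 7.16 and 5.22, at regions inside the gene, and of 9.12 and 6.61 at a region beside it. Its end region (8.43 and 8.97) and another region beside the gene (7.67 and 7.39) were level. Lrp8 had 2 of its 5 regions past 1.5-fold, with folds of 12.4 and 7.67 on 71 and 41 fragments (log2 -0.65, interval -1.24 to -0.074) and of 5.68 and 3.56 on 49 and 26 (log2 -0.64, interval -1.38 to 0.079). A region beside Lrp8, at an end of another gene, had 341 and 292 fragments and was at -0.12. The region over an end of Lrp8 itself, on 318 and 337 fragments, was at 0.21.

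Tasp1, the protease that cuts MLL proteins, had 2 of its 5 regions past 1.5-fold, both inside the gene. One had folds of 5.42 and 9.13 on 30 and 49 fragments (log2 0.79, interval 0.11 to 1.5) and the other 3.85 and 5.66 on 21 and 30 (log2 0.60, interval -0.25 to 1.48). The deep end region of Tasp1, on 464 and 468 fragments, was at 0.068, and the 2 calls were among its shallow regions. Next were Nr2f1, an orphan nuclear receptor gene (0.32), Dscaml1 (0.30), Abcc1, an export pump for lipids and drugs (0.26), Ccdc38 (0.26), Col4a2 (0.25), Padi3 and Padi1 (0.24 each, sharing 3 regions), Igdcc4 (0.24) and Gipr, the receptor gene for the gut hormone GIP (0.23). By fragments over the list median Nr2f1 was at 0.069 and Marchf6 at -0.15, and with summits within 100 bp Cdc42bpb was at -0.0079. Of the 20 genes 18 had exactly 5 regions, so each of those medians is the value of 1 region. In naive cells Rbpj had a median of 0.0 over 3 regions, Marchf6 0.18 over 4, and Tasp1 0.13 over 5.

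**Figure D5:**
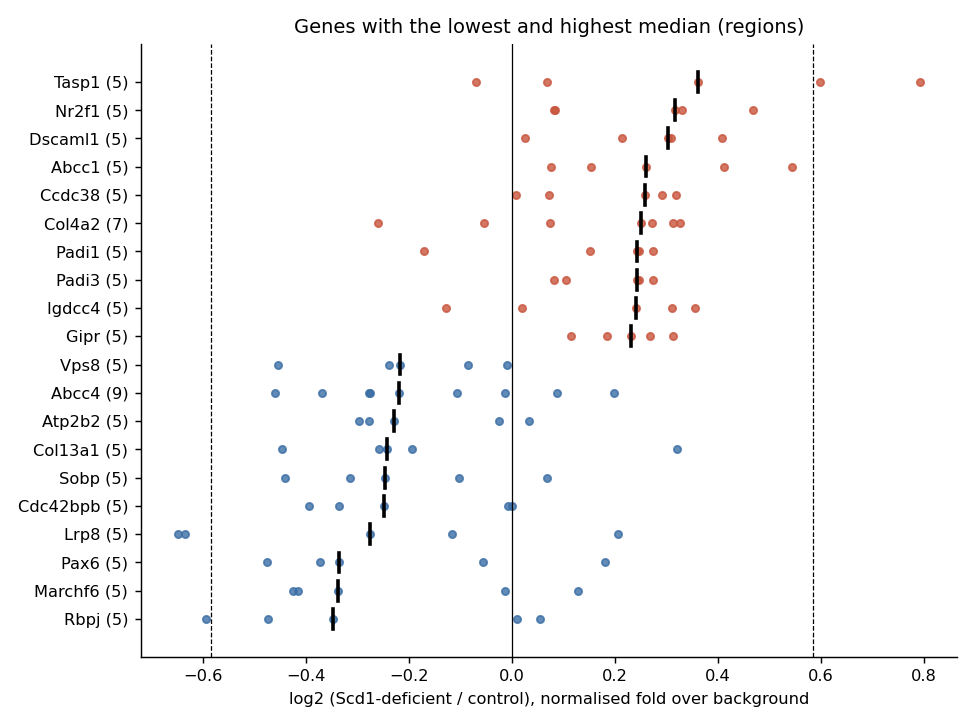
Log2 ratio of Scd1-deficient to control of each matched wide region (points) of the 10 genes with the lowest and the 10 with the highest median among 2438 genes with at least 5 regions; number of regions in brackets, black bars are medians, dashed lines 1.5-fold. Points past 1.5-fold appear for Tasp1, Lrp8 and Rbpj, and most genes have regions close to 0.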

How the data were processed

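ATAC-seq had been done on 1 library each of DN3 and naive CD4 T cells from Scd1-deficient mice and littermate controls. The submitters' processing notes name Trimmomatic, BWA, MACS2 and mm10. For versions, MACS2 settings, the treatment of duplicates and any Tn5 shift: not given in the sources used here. Peaks were called by the authors in each sample, and the deposited narrow peak lists were used as they stand. Their fold is a ratio of summit pileup to local background, and the deposited −log10 p and −log10 q belong to the summit in its own library. The position of the summit is also deposited.

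The fragments at each summit were recovered from fold and −log10 p and came out whole, within 0.05, for 100% of regions. Without the MACS2 settings, a unit called a fragment here may be a read pair or a single read. The counting spread and the intervals take these units as independent. Read totals were not used here. The lowest background was 4.72 fragments in the DN3 control and 4.47 in the Scd1-deficient library, and the median region had 69 and 63 summit fragments. Genes came from a RefSeq table (GRCm38.p6) without strand, so start and end of a gene are not told apart, and a start inside the annotated gene counts as inside it. Of 499 list symbols 496 matched. Shares have Wilson 95% intervals in the tables and cover counting error only. PCR duplicates may be among the fragments.

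The members, gene lists and markers were chosen with earlier results of these data known. Named were Scd1 to Scd4, the 12 highest and 12 lowest matched wide regions, the 10 strongest regions of at least 500 bp without counterpart per list, the 10 highest and 10 lowest genes with at least 5 regions, the highest and lowest member of each list and the DN3 markers. Others were chosen after their values were seen, among them the examples from the gene lists, the same-summit and the deep regions. Alternatives changed the width, scaling, overlap, summit distance, −log10 q and gene flank. The steps were tested on simulated data. Python 3.11.15, numpy 2.4.6, pandas 2.3.3, scipy 1.17.1 and statsmodels 0.14.6 were used.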

Additional observations from a re-analysis of the deposited data

Results flagged for a closer look

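Matched wide regions near Nipal1, Ctdspl and Rims2 went opposite ways in DN3 and naive cells, past 1.5-fold in both, and the difference was not tested. The region inside Nipal1, a magnesium transporter gene, was lower in Scd1-deficient DN3 cells (log2 -0.67, 95% counting interval -1.33 to -0.041, folds 10.5 and 6.39 on 59 and 34 fragments) and higher in Scd1-deficient naive cells (0.82, folds 5.89 and 10.7). The region 11.1 kb from Ctdspl had -0.61 in DN3 (interval -1.28 to 0.032, 62 and 31 fragments) and 0.80 in naive cells. The region 25.2 kb from Rims2 had 0.61 in DN3 (interval -0.023 to 1.26, 37 and 53 fragments) and -0.60 in naive cells. The last 2 intervals hold 0, and the regions were picked from 26818 pairs.

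The Y chromosome, left out of every comparison, held 14 peaks in the DN3 control list and 13 in the Scd1-deficient list.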

How the results depend on the processing

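Regions past 1.5-fold numbered 190 higher in Scd1-deficient cells and 307 in the control. They numbered 445 and 652 from 300 bp, 47 and 84 from 800 bp, 110 and 185 with summits within 100 bp, and 101 and 146 where −log10 q reached 10 in both lists; these settings test more or fewer regions. With summit fragments over their list median in place of fold they numbered 331 and 432, and the cause was not tested. Quantile scaling gave 159 and 328, and an overlap of at least 50% of both regions 159 and 246. Regions without a counterpart, 10.4% and 9.48%, were 1.62% and 1.24% from 500 bp, 3.50% and 2.60% among regions whose −log10 q reached 10, and 13.4% and 11.7% when 50% of the region had to overlap. With as many regions in both lists they were 10.1% and 9.61%.

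The gene-end median of 0.063 became 0.080 with fragments, 0.029 with quantile scaling, 0.061 from 300 bp and 0.066 with summits within 100 bp. Inside genes the median of 0.032 became 0.018, 0.0049 and 0.022 under the first 3 of these, and outside genes 0.030 became 0.019, 0.00014 and 0.022. Gene ends had the highest median under each of these settings. List medians, 0.0095 to 0.070, had a lowest value of -0.023 with fragments and -0.013 with quantile scaling and a highest of 0.15 with fragments. Of 25 lists 3 and 5 changed sign under these, 2 with summits within 100 bp and 2 from 300 bp. Of the 20 named gene medians, Nr2f1 went from 0.32 to 0.069 with fragments and Cdc42bpb from -0.25 to -0.0079 with summits within 100 bp, and none changed sign. The cause of these shifts was not tested.

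Against the overlapping region with the nearest summit, an alternative chosen after seeing the data, 8 named regions changed sign: Haus1 to -0.091, Serp2 to 0.056, Itgb2 to 0.035, Map4k3 to 0.29, Rgs21 to 0.13, Tcte2 to 0.12, Phf12 to 0.13 and Cdk19 to 0.090. The other 11 with such a region came closer to 0. No paired analysis was possible because each group has 1 library, and no replicate could be left out. Depth limits what can be seen: at the median of 35.5 fragments in the shallowest class, counting alone gives a log2 spread of 0.355.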
